A study of Mus musculus with 38 samples.

Results

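A set of 9 genes that mark astrocytes were followed: Gfap, Aldoc, Aldh1l1, Glul, Slc1a2, Slc1a3, Gja1, Aqp4 and S100b. They were chosen by gene symbol, 9 of the 25965 genes of the RNA table, and all 9 were among the 14858 genes that passed the filter on low values. The cells were neural stem and progenitor cells (NSPCs) from the subventricular zone (SVZ) of male C57BL/6JBabr mice, either young adult (3 months) or aged (18 months). They were grown without attachment as neurospheres, with epidermal and fibroblast growth factor, and used at the second passage. The tissue of several mice was pooled into each derivation, 3 derivations were made per age, and no group received a treatment. Another young adult and another aged derivation came from C57BL/10 mice of the same ages, kept in a separate facility, so that strain, facility and cohort cannot be told apart.

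The 38 libraries comprised 8 of mRNA, 18 of chromatin immunoprecipitation (ChIP) for H3K4me3 or H3K27me3 and their Input, and 12 of bisulfite (BS) or oxidative bisulfite (oxBS) conversion. The mRNA libraries held 16952486 to 41053972 reads, and the BS and oxBS libraries gave 13616283 to 30400033 calls, at 1.204 to 1.481 calls per covered position. The 10 NSPC markers, among them Nes and Sox2, summed to 3160 to 4670 reads scaled to library size as RPM, the reads of a gene per megaread,, against 32.7 to 52.4 RPM for the neuronal markers and 5.32 to 7.86 RPM for the microglial markers, of which 4 of 6 stayed under 10 reads in every library. The oligodendrocyte lineage markers summed to 1350 to 1890 RPM.

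Astrocytes clear glutamate from synapses through Slc1a2 and Slc1a3, turn it into glutamine with Glul, share ions and metabolites through gap junctions of Gja1, and move water through Aqp4 at their contacts with blood vessels. Gfap is the intermediate filament protein that defines fibrous and reactive astrocytes, Aldoc a glycolytic enzyme, Aldh1l1 an enzyme of folate metabolism and S100b a calcium-binding protein. The stem cells of the adult SVZ are themselves glial and carry several of these genes, so the genes do not by themselves tell a stem cell from a mature astrocyte. In bulk cultures such as these, fewer cells of a type and less RNA per cell cannot be told apart.

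The upstream sequences of 4 of the genes are shown because they differ in CpG density and in the promoter marks described below. Each runs 5′ to 3′ on the strand of the gene over the 250 bases before the transcription start site (TSS) used in the ChIP table, and capitals mark CpG dinucleotides. The coordinates are those of GRCm38: Glul chr1:153899694-153899943, plus strand, Gja1 chr10:56377050-56377299, plus strand, Gfap chr11:102897132-102897381, minus strand, and S100b chr10:76253603-76253852, plus strand.
Glul: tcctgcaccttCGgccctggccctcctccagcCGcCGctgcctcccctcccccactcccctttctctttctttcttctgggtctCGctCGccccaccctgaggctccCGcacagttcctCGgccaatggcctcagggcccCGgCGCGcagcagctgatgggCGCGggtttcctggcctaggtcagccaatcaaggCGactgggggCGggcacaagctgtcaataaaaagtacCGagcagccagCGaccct
Gja1: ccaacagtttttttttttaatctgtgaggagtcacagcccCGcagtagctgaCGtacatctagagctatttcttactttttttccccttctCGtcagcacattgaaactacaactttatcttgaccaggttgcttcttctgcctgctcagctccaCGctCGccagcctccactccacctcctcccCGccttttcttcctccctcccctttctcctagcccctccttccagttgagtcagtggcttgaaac
Gfap: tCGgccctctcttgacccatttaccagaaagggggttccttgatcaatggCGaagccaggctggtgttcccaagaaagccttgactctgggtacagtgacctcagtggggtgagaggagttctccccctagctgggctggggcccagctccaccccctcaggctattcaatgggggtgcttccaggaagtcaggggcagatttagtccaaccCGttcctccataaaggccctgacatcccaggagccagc
S100b: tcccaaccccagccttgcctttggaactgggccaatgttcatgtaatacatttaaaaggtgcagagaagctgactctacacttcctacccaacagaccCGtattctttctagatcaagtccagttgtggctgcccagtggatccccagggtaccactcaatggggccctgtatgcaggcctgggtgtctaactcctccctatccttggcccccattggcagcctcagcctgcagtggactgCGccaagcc
These stretches held 16 CpGs for Glul, 6 for Gja1, 3 for Gfap and 2 for S100b. Over 5000 bp around the TSS, Glul held 170 CpGs, Slc1a2 146, Gja1 114, Slc1a3 95, Gfap 89, Aldoc 81, Aldh1l1 61, Aqp4 59 and S100b 41, against a median of 89 over all genes.

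On GRCm38 the genes lie at chr11:102887336-102900912 (Gfap), chr11:78322968-78327781 (Aldoc), chr6:90486427-90600203 (Aldh1l1), chr10:76253853-76261159 (S100b), chr2:102658659-102790784 (Slc1a2), chr15:8634124-8710764 (Slc1a3), chr10:56377300-56390419 (Gja1) and chr1:153899944-153909723 (Glul). All 9 genes were expressed, over a wide range. Per length of exon, as the mean log2 RPKM (RPM per kilobase of exon) of the 6 C57BL/6JBabr libraries, Aldh1l1 was highest at 7.83 ± 0.23 (SD, n = 6), which placed it at percentile 99.1 of 14621 genes. Glul (6.27 ± 0.34) and Slc1a3 (6.12 ± 0.32) followed and differed from each other by less than 1 SD. Gfap (4.81 ± 0.38) and Aldoc (4.70 ± 0.37) likewise lay within 1 SD of each other, as did Slc1a2 (3.47 ± 0.24), Aqp4 (3.33 ± 0.40) and Gja1 (3.33 ± 0.23). S100b, the marker that appears late in astrocyte maturation, stood apart at 0.24 ± 0.35, percentile 23.4, on only 31 to 104 reads per library. The library preparation did not mark strand, so reads of genes transcribed from the opposite strand cannot be separated. Such exons cover 11.0% of the exon bases of Aldh1l1 (Gm15756), 1.44% of Slc1a2 (Gm13872) and 3.49% of Glul (Teddm2).

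Whether astrocyte genes change with age was asked by comparing aged with young adult libraries. Gfap had the largest difference of the 9 genes with every library included. Without young adult replicate 2, aged replicate 1 or aged replicate 2, that of S100b was larger in size. It was 0.52, 0.53 and 0.44 there, against -0.44, -0.48 and -0.42 for Gfap. The level of Gfap was 6.99, 7.36 and 7.12 log2 RPM in young adult replicates 1, 2 and 3 and 6.49, 6.36 and 6.99 in aged replicates 1, 2 and 3. The aged libraries all lay below the young adult ones, though the highest aged and the lowest young adult library were only 0.0056 apart. The log2 difference, aged minus young, was -0.54 (SE 0.17, 95% interval -0.93 to -0.16). Gfap was the single gene of the 9 whose ages did not overlap, where 5.20% of all genes tested had such a split in either direction.

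Aldoc gave 6.68, 6.54 and 6.67 log2 RPM in young adult and 6.18, 5.77 and 6.63 in aged replicates, a log2 difference of -0.44 (SE 0.19). The ages overlapped through aged replicate 3, which lay within the young adult range. Aldh1l1 gave 10.09, 10.32 and 10.03 in young adult and 10.04, 9.96 and 9.62 in aged replicates, with a log2 difference of -0.27 (SE 0.16). Aged replicate 1 of Aldh1l1 lay just above the lowest young adult library, so these ages overlapped too.

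Of the genes that handle glutamate, Glul gave 7.74, 8.12 and 8.49 log2 RPM in young adult and 7.57, 7.90 and 8.21 in aged replicates. Each aged library of Glul was lower than the young adult library of the same number, by 0.17 to 0.28, while the numbers differed from each other by more than that. Slc1a3 gave 9.04, 9.33 and 9.59 in young adult and 8.84, 8.95 and 9.57 in aged replicates. Slc1a2 gave 7.01, 7.28 and 7.27 in young adult and 6.83, 7.19 and 7.52 in aged replicates. Their log2 differences with age were -0.22 (SE 0.21) for Glul, -0.20 (SE 0.21) for Slc1a3 and -0.01 (SE 0.17) for Slc1a2. With the replicate number as a block the SE was 0.06 for Glul and 0.08 for Slc1a3, whose interval was -0.37 to -0.02 with a limma adjusted p of 0.524.

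The membrane channels overlapped between the ages. Gja1 gave 6.62, 6.63 and 6.88 log2 RPM in young adult and 6.33, 6.70 and 6.97 in aged replicates. Aqp4 gave 5.71, 6.01 and 6.41 in young adult and 5.51, 5.72 and 6.47 in aged replicates. S100b was the one gene with a higher mean in aged cells, at 0.37, 0.87 and 0.62 in young adult and 0.72, 0.91 and 1.40 in aged replicates. The log2 differences were -0.05 (SE 0.16) for Gja1, -0.14 (SE 0.26) for Aqp4 and 0.39 (SE 0.26) for S100b.

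**Figure D1:**
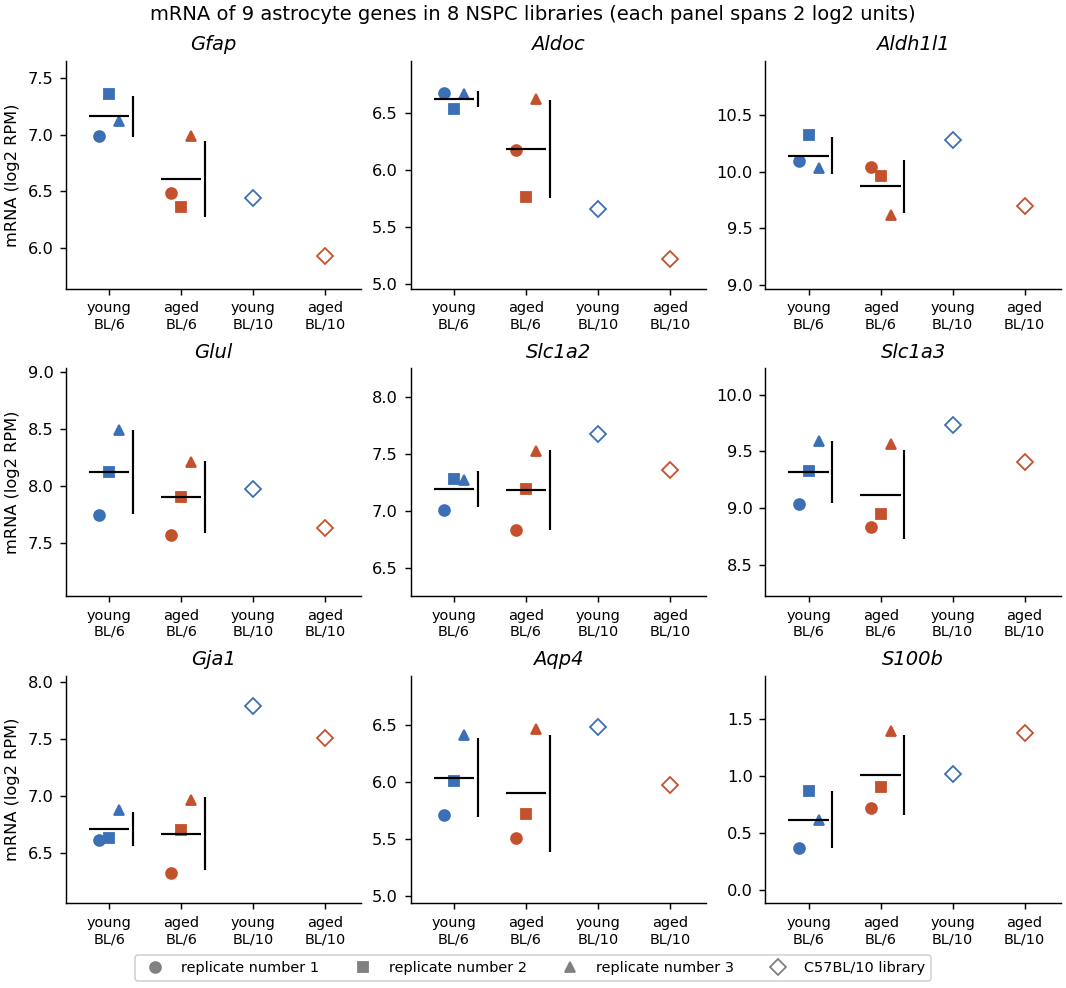
mRNA level (log2 RPM, vertical axis) of each gene in the 8 libraries, young adult in blue and aged in red, with replicate numbers by symbol, horizontal lines for the mean and vertical lines for 1 SD of 3 libraries, and open diamonds for the single C57BL/10 libraries. Gfap is the gene whose 3 aged C57BL/6JBabr libraries all lie below the 3 young adult ones, while Gja1 and Aldoc in C57BL/10 lie outside the range of the other libraries.

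In limma 0 of the 9 genes passed an adjusted p of 0.05, and so did 0% of all 14858 genes. The adjusted p was 0.99998 for each of the 9. At an unadjusted limma p under 0.05 there were 258 of the 14858 genes, Gfap (0.0117) and Aldoc (0.0485) among them. edgeR called 0 genes and DESeq2 4, none of them among the 9, and edgeR had 257 and DESeq2 219 genes at an unadjusted p under 0.05.

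Libraries of the same replicate number deviated together, with correlations of 0.73 and 0.83 for numbers 1 and 3 but only 0.201 for number 2. The fit was therefore also made with the number as a block. This replicate block raised the calls to 74 genes, 0.498% of those tested, with 0 of the 9 among them. The smallest adjusted p of limma with the block belonged to Gfap (0.0875), followed by Aldoc (0.137), Glul (0.214) and Aldh1l1 (0.320). For Glul the SE shrank from 0.21 to 0.06, with an interval of -0.36 to -0.08. When the C57BL/10 pair was added to the paired fit as a block of its own, a step chosen after the data were seen, limma called 265 genes (1.78%). Gfap (log2 difference -0.53, adjusted p 0.0268), Glul (-0.25, adjusted p 0.037) and Aldoc (-0.44, adjusted p 0.0384) were then past the threshold, 3 of the 9, all lower in aged cells, and Aldh1l1 (-0.35, adjusted p 0.0536) was not.

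In the C57BL/10 pair 8 of the 9 genes were lower in the aged library. The share of all genes that were lower in this pair alone was not taken. The log2 difference there was -0.58 for Aldh1l1, -0.51 for Gfap and for Aqp4, -0.43 for Aldoc, -0.34 for Glul, -0.32 for Slc1a3, -0.31 for Slc1a2 and -0.28 for Gja1, and S100b was 0.36 higher. Gfap, Aldoc, Aldh1l1, Slc1a3 and Glul were lower in the aged library in all 4 pairs, 5 of the 9 genes, where 10.4% of all genes tested were. S100b was higher in all 4 pairs, as were 1813 of the 14858 genes tested. Its difference in number 2 was only 0.04, on 31 young adult and 52 aged reads. The age difference did not pass a test of a difference between the strains for any of the 9 genes, with an adjusted p of 1.00000 in limma, and 1 gene of all those tested passed it (0.00673%). With 1 library per age in C57BL/10, that test assumes the spread of the other strain.

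**Figure D2:**
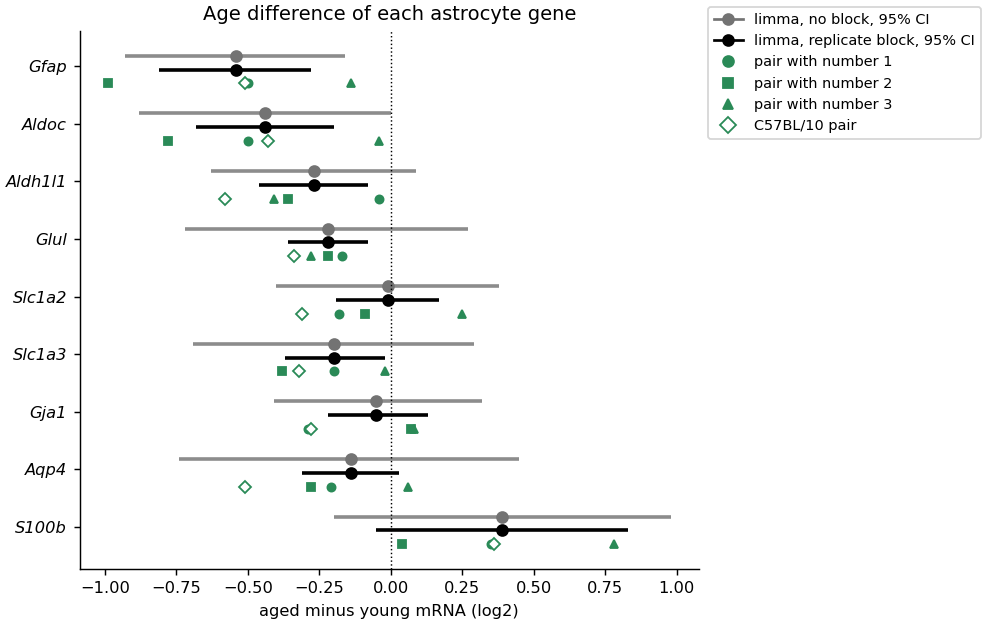
Age difference (aged minus young adult, log2, horizontal axis) of each gene, as the limma estimate with its 95% interval without (grey) and with (black) the replicate block, and as the differences of the single pairs (green, the C57BL/10 pair as an open diamond). The intervals of Gfap and Aldoc lie below 0 in both fits, that of Aldoc only just so without the block. All 4 pairs of Gfap, Aldoc, Aldh1l1, Slc1a3 and Glul lie below 0. All 4 pairs of S100b lie above 0, that of number 2 by only 0.04.

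Several of the genes differed between the replicate numbers. A limma F test of the replicate number, with age in the model, called 5 of the 9 genes, against 22.0% of the genes tested. These were Glul (adjusted p 0.000345), Aqp4 (adjusted p 0.000344), Slc1a3 (adjusted p 0.00213), Slc1a2 (adjusted p 0.0131) and Gja1 (adjusted p 0.0179). The mean of number 3 was the highest for each of the 5, and exceeded that of number 1 by 0.83 for Aqp4, 0.70 for Glul, 0.64 for Slc1a3, 0.48 for Slc1a2 and 0.45 for Gja1 on the log2 scale. Aldoc (adjusted p 0.0512), Aldh1l1 (0.0946), Gfap (0.279) and S100b (0.345) did not pass the same F test in limma, and Aldh1l1 was lowest in number 3.

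Other astrocyte markers moved with the number as well. Of the 29 tested, 16 passed the F test, 15 of them highest in number 3, and over all genes 3263 passed, of which 1860 were highest in number 3. All 4 tested ependymal markers passed it, highest in number 3, and the summed ependymal level was 106 and 96.9 RPM in young adult and aged number 3 against 32.5 and 36.0 RPM in number 1. The summed NSPC markers were 3330 and 3160 RPM in number 3 against 4670 and 4340 RPM in number 1. Gene by gene, 6 of the 10 NSPC markers passed the F test, 4 highest and 1 lowest in number 3, with a median difference of -0.02 between numbers 3 and 1. The part of these differences in the levels of the 9 genes was not tested.

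Between the strains, 3 of the 9 genes differed, against 30.1% of the genes tested. This fit had age in the model but no replicate block, and took each library as independent. Same-numbered libraries deviated together, though weakly in number 2, and C57BL/10 gave a single pair, so the SEs and adjusted p of this fit do not allow for the pairing. Gja1, the gap junction gene, was 7.79 log2 RPM in young adult and 7.51 in aged C57BL/10 cells, above all 6 C57BL/6JBabr libraries, a log2 difference of 0.96 (SE 0.15, limma adjusted p 0.00148). Aldoc was 5.66 and 5.22, below all 6, with a difference of -0.97 (SE 0.18, limma adjusted p 0.00339). Gfap was 6.44 and 5.93, with a difference of -0.70 (SE 0.16, limma adjusted p 0.00979), and its young adult C57BL/10 library lay within the aged C57BL/6JBabr range.

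With 1 C57BL/10 library left the differences of Aldoc and Gfap hardly moved, while fewer calls passed. Without the young adult one the difference was 0.85 for Gja1, -0.97 for Aldoc and -0.68 for Gfap, with a limma adjusted p of 0.054, 0.0622 and 0.135, so that 0 of the 9 were called. Without the aged one Gja1 was still called (1.08, limma adjusted p 0.0156), and Aldoc (-0.97, limma adjusted p 0.0504) and Gfap (-0.72, limma adjusted p 0.0888) were not. Without aged replicate 3, Slc1a2 (0.42, limma adjusted p 0.0282) and Slc1a3 (0.46, limma adjusted p 0.0372) were also called, and with quantile normalization S100b was (0.64, limma adjusted p 0.0465).

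**Figure D3:**
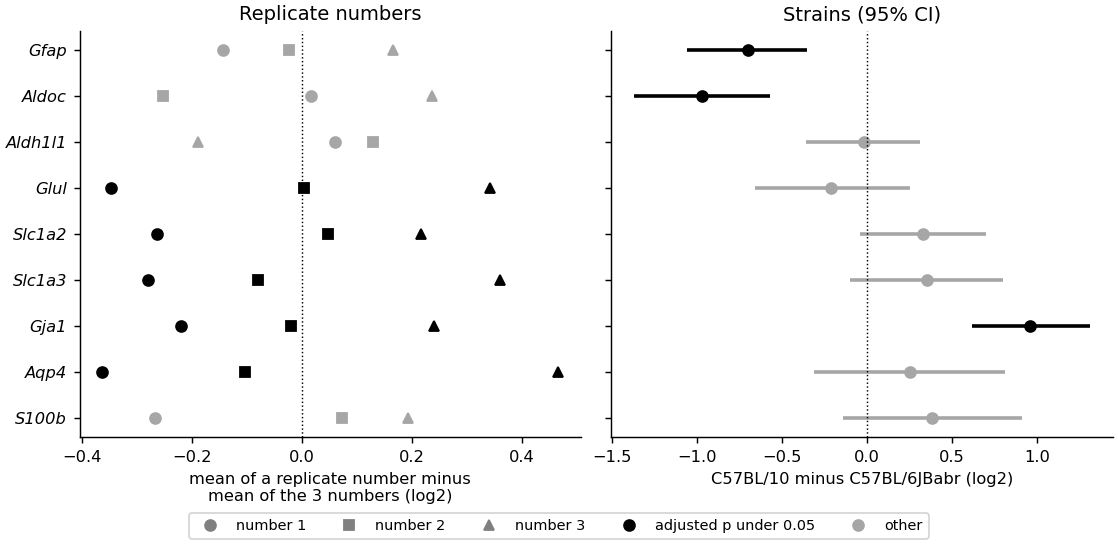
Left, mean log2 RPM of each replicate number (young adult and aged averaged) minus the mean of the 3 numbers, and right, the limma difference of C57BL/10 minus C57BL/6JBabr (log2) with its 95% interval, black where the adjusted p was under 0.05. Number 3 lies highest for all genes but Aldh1l1, and the strain difference of Gja1 (0.96) is opposite in sign to those of Aldoc (-0.97) and Gfap (-0.70).

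For the genes that spanned at least 1 log2 unit over the 8 libraries, the 3 genes with the most similar pattern were found, by the mean absolute difference of log2 RPM after each gene was centred. For Gfap these were Gfpt2 (0.118), AC241593.1 (0.135) and Mboat1 (0.136). For Aldoc they were Bdh1 (0.126), Pnp (0.13) and Ifi35 (0.14), for S100b Neat1 (0.092), Tubb3 (0.094) and Gm12265 (0.102), and for Gja1 Rgs17 (0.062), Ptprn (0.065) and Cadm1 (0.067).

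The genes that work beside the 9 gave no calls with age in limma without the block. Of the 29 other astrocyte markers tested, 20 had a lower and 9 a higher mean in aged cells, with a median log2 difference of -0.07 against 0.00 over all genes. The largest fall was that of Fam107a (-1.39, SE 0.45) and the largest rise that of Gpr37l1 (0.37, SE 0.49), neither past the threshold. Fam107a lay near the filter on low values, at -0.89 log2 RPM in young adult and -2.28 in aged cells. Pla2g7, a lipid-modifying enzyme, fell by 0.48 on the log2 scale, with a limma adjusted p of 0.99998 without and 0.0216 with the block. Of the 20 reactive astrocyte genes, 15 had a lower mean in aged cells, with a median of -0.18. The extremes were C3 (-1.30, SE 1.02) and Serpina3n (0.36, SE 0.42), neither past the threshold. Among them Ptx3, a secreted pentraxin of innate immunity, fell by 0.73 (limma adjusted p 0.0216 with the block, 0.99998 without).

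Partners of the single genes stayed under the threshold with and without the block. Of those named here, Slc1a1, Gja4, Gjc3 and Des were near the filter, with a negative mean log2 RPM at both ages. Among the 13 genes of glutamate and glutamine handling the extremes were Got1 (-0.22, SE 0.11) and Slc1a1 (0.24, SE 0.31), with 9 means lower in aged cells. Among the 9 genes of the water channel and endfoot complex they were Aqp9 (-0.48, SE 0.21) and Hepacam (0.11, SE 0.25). The 4 tested connexins ranged from Gja4 (-0.67, SE 0.53) to Gjc3 (0.95, SE 0.59). The 15 genes of aldolases and glycolysis ranged from Gpi1 (-0.20, SE 0.14) to Pfkl (0.02, SE 0.13), with 13 means lower in aged cells and a median of -0.10. The 7 intermediate filament genes ranged from Des (-0.40, SE 0.63) to Lmnb1 (0.08, SE 0.18), the 10 folate enzymes from Tyms (-0.12, SE 0.19) to Mthfd1l (0.13, SE 0.11), and the 6 S100 genes from S100a13 (-0.23, SE 0.28) to S100a6 (-0.01, SE 0.40).

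The pathway that induces astrocyte genes comprised JAK-STAT, BMP, Notch and NFI genes and their cofactors. Of its 22 means, 18 were higher in aged cells, with a median of 0.08, where 7512 of all 14858 genes tested were higher. None of the 22 was called with or without the block, and their direction as a set was not tested. Socs3, the feedback inhibitor of JAK-STAT signalling, had the largest difference, 6.45 ± 0.26 log2 RPM in young adult and 6.95 ± 0.30 in aged cells (SD, n = 3 each). This was 0.50 (SE 0.18) higher, with a limma adjusted p of 0.99998 without and 0.117 with the block.

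Markers of other cell types were not called with age either. Of those named here, Dcx, Rbfox3, Mog, P2ry12, Pecam1 and Rgs5 had a negative mean log2 RPM at both ages. Of the NSPC markers the extremes were Prom1 (-0.26, SE 0.17) and Egfr (0.17, SE 0.10), of the neuronal markers Dcx (-0.36, SE 0.47) and Rbfox3 (0.67, SE 0.36), and of the oligodendrocyte lineage Pdgfra (-0.19, SE 0.32) and Mog (0.64, SE 0.88). Rsph1 (-0.69, SE 0.65) and S100a6 were the extremes of the ependymal markers, P2ry12 (-0.61, SE 0.52) and Csf1r (-0.11, SE 0.15) those of the microglial markers, and Pecam1 (0.06, SE 0.44) and Rgs5 (0.38, SE 0.53) those of the endothelial and pericyte markers.

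Promoters were compared by H3K4me3, the mark of active starts, and H3K27me3, the mark of Polycomb repression, as the authors' log2 RPM over 5000 bp centred on the TSS. The libraries of an age were pooled by the authors into 1 value, so there is no replicate error and no test. In young adult cells the 9 genes ran from percentile 36.8 to 98.9 in H3K4me3. Slc1a3 (6.57 young adult, 6.76 aged), Glul (6.34, 6.47), Aldh1l1 (6.24, 6.16) and Gja1 (6.17, 6.27) were among the highest of all genes, with percentiles of 90.3 to 98.9, and Slc1a2 followed (5.49, 5.74). Aldoc (3.90, 3.94) and Aqp4 (3.84, 3.84) lay near the median of all windows (3.64 and 3.73). Gfap (2.58, 2.43) was 1.27 and 0.92 above its Input, and S100b (0.31, 0.21) was below its Input (0.79, 1.06) at both ages.

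In mRNA per length Gfap exceeded Slc1a2, Aqp4 and Gja1, while its H3K4me3 was below that of all 3. It also held the highest H3K27me3 of the 9, 1.93 in young adult and 2.11 in aged cells, above Input by 0.62 and 0.60 and at percentiles 81.9 and 83.9. Slc1a2 was next, with 1.49 and 1.26, above Input by 0.60 and 0.46. The H3K27me3 of Gja1 (0.85, 0.78) was 0.10 and 0.01 above Input, and that of Glul was 0.07 above Input in aged cells. At the remaining genes and ages the mark was below Input in the single window used per gene. At another start, the Aldh1l1-005 window held 1.56 in young adult and 0.99 in aged cells, against Input of 0.69 and 0.86.

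The age difference in H3K4me3 ran from -0.15 (Gfap) to 0.25 (Slc1a2), while the median over windows above a log2 RPM of 1 was 0.21 higher in aged cells. A window was counted as changed where the ages differed at least 1.5-fold and either exceeded a log2 RPM of 1. By this rule 0 of the 9 genes changed in H3K4me3, where 0.224% of 25888 windows did, and 0 in H3K27me3, where 1.61% did. The H3K27me3 differences ran from -0.66 at Aldoc (0.37 to -0.29) to 0.52 at Slc1a3 (-0.07 to 0.45), both at levels under Input. The difference at Slc1a3 was 0.16 with Input subtracted and 0.15 in its window of highest H3K4me3. With quantile normalization the H3K4me3 differences of Slc1a3 (-0.05), Gja1 (-0.12), Glul (-0.09), Aldoc (-0.09) and S100b (0.12) changed sign, as did those of Slc1a3 (-0.18) and Aldoc (-0.25) with Input subtracted. Input subtraction also turned the H3K27me3 differences of Gfap (0.18 to -0.02) and S100b (0.12 to -0.15), raised that of Aqp4 from 0.19 to 0.72, and spread the H3K4me3 differences from -0.36 (S100b) to 0.53 (Aqp4).

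Several of the genes have further annotated starts. Windows of starts that lie close together overlap over most of their 5000 bp, so counts of windows are not counts of separate starts. H3K4me3 was above a log2 RPM of 1 in 2 of 5 windows of Aldh1l1, 5 of 11 of Slc1a2, 6 of 8 of Slc1a3 and 4 of 5 of Glul, and in all windows of Gfap, Aldoc, Aqp4 and Gja1. That cut is near the median Input of all windows (0.93 young adult, 0.97 aged). The Gfap-002 window passed it with 1.26 in young adult and 1.59 in aged cells, against its Input of 1.31 and 1.39. In Slc1a2 the 5 marked windows held 5.49 to 5.80 and the 6 others -0.73 to 0.75. The marked ones begin between bases 102656159 and 102656781 of the chromosome and overlap almost wholly.

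**Figure D4:**
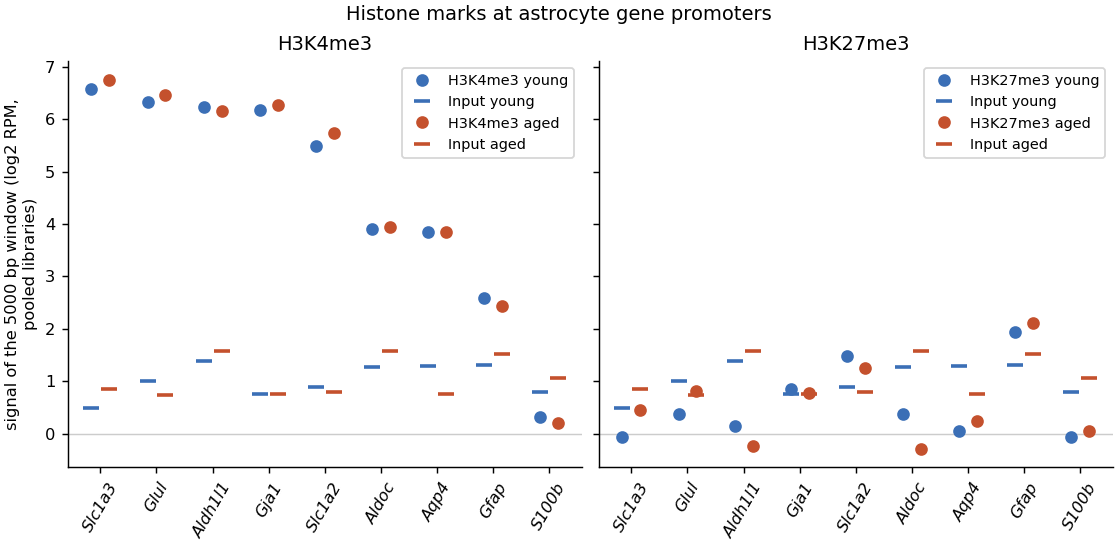
H3K4me3 (left) and H3K27me3 (right) of the 5000 bp window around the TSS of each gene (log2 RPM, pooled libraries, dots), with Input as dashes, young adult in blue and aged in red. H3K4me3 falls from 6.57 at Slc1a3 to 0.31 at S100b in young adult cells. H3K27me3 is furthest above Input at Gfap (0.62 young adult, 0.60 aged) and Slc1a2 (0.60, 0.46), without a replicate error.

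DNA methylation was read from oxBS calls, which report 5-methylcytosine (5mC) alone, and BS calls, which report 5mC and 5-hydroxymethylcytosine (5hmC) together. As the mean of the 6 oxBS libraries over the same 5000 bp, 5mC was lowest at Slc1a2 (12.6% ± 7.22), Slc1a3 (12.9% ± 3.13), Glul (16.5% ± 6.94) and Gja1 (23% ± 10.3). It was higher at Aldoc (39.2% ± 8.03), Aldh1l1 (39.3% ± 5.99), Aqp4 (49.4% ± 8.44), Gfap (56.1% ± 9.40) and S100b (58.6% ± 12.4), against a median of 35.8% over 23775 windows. Each value rests on 28 to 189 calls per library, and the ± is the SD of 6 libraries. Across the remainder of the gene, Gfap was low for a gene body, at 57% ± 8.37, percentile 6.2 of 18380, as were Glul (63.7%) and Slc1a3 (64.4%). Aldoc (79.6%), S100b (81.9%) and Aqp4 (83.2%) exceeded the median of 78.8%. For Gfap and Aldh1l1 this remainder includes bases upstream of the TSS used, as another annotated start lies there.

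The position of the unmethylated stretch differed between the genes. In 500 bp bins with the calls of the 3 libraries of an age summed, Glul held 0% 5mC at both ages in every bin from 500 bp before to 1499 bp after the TSS, as did Slc1a3 from the TSS to 1499 bp after it. In S100b only the bin just before the TSS was low (7.14% of 14 young adult calls and 0% of 10 aged calls), and the bin after it held 73.7% and 67.6%. Aqp4 was lowest from -3500 to -3001, with 10.7% of 28 young adult and 4.55% of 22 aged calls methylated. Its bin that starts at the TSS held 19.2% and 20.0%. At Gfap the TSS itself was methylated, with 69.4% and 61.7% in the bin that starts there. Other bins of Gfap were fairly low, with 17.6% and 23.7% from 3500 to 3999 and 21.7% and 18.2% from -4000 to -3501. The latter bin holds the annotated start of Gfap-002. The lowest stretch lay upstream of the TSS. From -2000 to -1501 it had 0% of 28 young adult and 4.0% of 25 aged calls methylated, and from -1500 to -1001 8.57% of 35 and 13.5% of 37.

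That upstream stretch holds an element that STAT3 is known to bind when astrocyte genes are induced, and whose CpG is methylated in early neural progenitors. The motif TTCCGAGAA, searched on both strands from 5000 bases before to 500 after the TSS, occurred once in Gfap. It lies at chr11:102898638-102898646 of GRCm38, on the minus strand, at position -1511 relative to the TSS, and is shown on the strand of the gene with the element in capitals.
Gfap element: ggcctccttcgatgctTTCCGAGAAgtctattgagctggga
The same letters occur in 358 of 25875 such windows (1.38%), so a match alone is not particular to Gfap. Its CpG had 17 calls in the 12 libraries, 6 young adult and 3 aged in oxBS and 5 and 3 in BS. None of the 17 was methylated, which allows a share of up to 17.6% by the limit of 3 counts, or 19.5% by the exact 95% binomial interval. The 3 aged oxBS calls all came from replicate 2, and the 3 aged BS calls from replicates 1 and 3. These calls are too few for a comparison of the ages at this CpG.

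**Figure D5:**
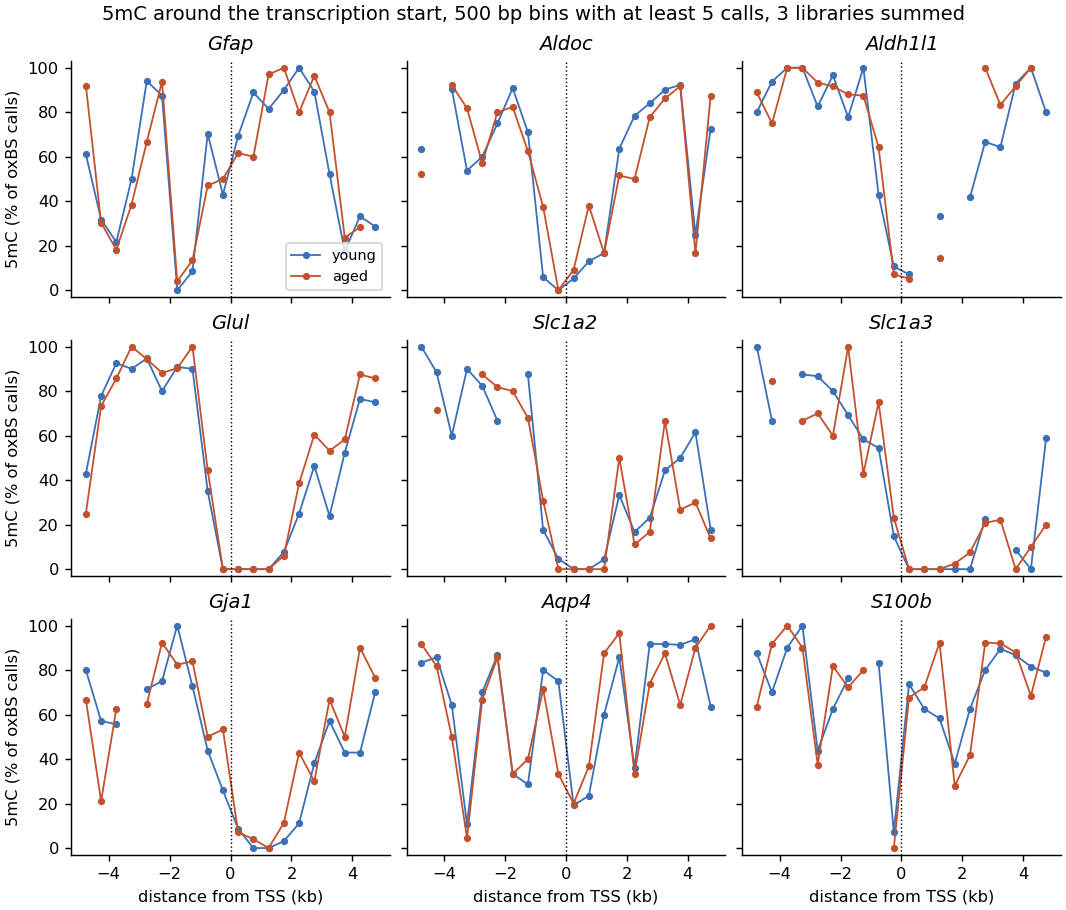
5mC (percent of oxBS calls, vertical axis) in 500 bp bins by distance from the TSS (kb, positive into the gene) for young adult (blue) and aged (red) cells, the calls of 3 libraries summed and bins with fewer than 5 calls left out. Glul, Slc1a2 and Slc1a3 hold 0% in the first 1000 bp of the gene at both ages and Gja1 at most 8.62%. The low point of Gfap lies between -2000 and -1001, and that of Aqp4 between -3500 and -3001.

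In the comparison of ages, a quasi-binomial model of the calls found 0 of the 9 promoters changed in oxBS and 0% of 23775 windows at an adjusted p under 0.05. At an unadjusted p under 0.05 there were 1279 windows (5.38%), Gja1 and Glul among them. Gja1 held 12.2%, 24.6% and 8.50% 5mC in young adult and 28.2%, 33.1% and 31.5% in aged replicates, so that its ages did not overlap, as was the case in 10.4% of all windows. The difference was 15.8 percentage points (unadjusted p of the model across all windows 0.0042, adjusted 0.918). Glul held 11.4%, 14.6% and 9.52% in young adult and 20.7%, 28.4% and 14.3% in aged replicates, 9.26 points higher with slight overlap (unadjusted p of the model 0.0139, adjusted 0.918).

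The share of calls from bins of low 5mC differed between the ages in these 2 windows. Its part in the differences was not tested. Bins under 20% 5mC gave 75.8% of the young adult and 60.1% of the aged calls of Gja1, and 83.5% and 71.9% of those of Glul. With each 500 bp bin given the same weight, a step chosen after the data were seen, the difference was 8.69 points for Gja1 and 3.89 for Glul. These values use the calls of an age summed over its libraries, whereas the differences above are of means of libraries. Within 1000 bp on either side of the TSS it was 6.79 points for Gja1 and 2.97 for Glul. In BS, Gja1 held 15.0%, 21.5% and 16.8% in young adult and 14.7%, 20.3% and 26.7% in aged replicates, 2.81 points higher with overlap, and Glul was 2.76 points higher.

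The other promoters differed by -8.53 points (Aldoc), -1.16 (Gfap), 2.00 (Aldh1l1), 2.41 (Slc1a3), 3.04 (Slc1a2), 5.00 (S100b) and 5.30 (Aqp4) in oxBS, with overlapping ages and an adjusted p of at least 0.961 in the model. Within 1000 bp of the TSS the difference turned to 13 points for Aldoc, -1.09 for Aldh1l1 and -6.41 for Aqp4, and with equal bins to 0.82 for Aldoc and -1.46 for Aldh1l1. In gene bodies 0 of the 9 genes and 0% of 18380 genes were called. At an unadjusted p under 0.05 there were 764 (4.16%), Glul among them (unadjusted p of the model 0.0122). The largest difference there was that of Glul, 57.9% ± 7.65 in young adult and 69.6% ± 5.94 in aged cells (SD, n = 3 each), or 11.8 points, with overlap and an adjusted p of 1.00000 in the model. BS gave 0 of 9 called promoters (0% of 24542, with 1180 or 4.81% at an unadjusted p under 0.05), and 0 of 9 gene bodies (0% of 18945, with 682 or 3.6%). In BS the ages did not overlap at the promoter of S100b (-8.12 points), where 9.75% of all windows were so split, and in the gene bodies of Slc1a3 (1.84 points) and Glul (4.34 points), where 8.98% of genes were.

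5hmC was taken as BS minus oxBS of the same age and number. In gene bodies its mean by age lay between -7.25 (Aldoc) and 8.80 (Glul) percentage points, with SDs of 0.269 to 12.2 points over 3 replicates. Slc1a3 was the single gene whose ages did not overlap, with 0.163, -0.368 and -0.179 points in young adult and 1.44, 0.295 and 1.26 in aged replicates. The two-sided exact permutation test gave p = 0.1 there, the smallest that 3 against 3 allows, and 0.9 after Benjamini-Hochberg adjustment over the 9 genes. Among all gene bodies 9.96% had ages that did not overlap. At promoters, where 10.1% did, the ages of Slc1a2 and Gja1 did not overlap, each with the smallest exact permutation p of 0.1. The aged values of Gja1 were -13.4, -12.8 and -4.84 points, below 0 and so not a level of 5hmC, as its oxBS values in aged cells exceeded those of BS.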

How the data were processed

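mRNA, micrococcal nuclease ChIP and whole-genome BS and oxBS libraries of SVZ NSPCs were analysed. The RNA values are log2 RPM per gene and library, made by the authors and deposited as 1 table. Whole reads were recovered from them for edgeR and DESeq2 (100% of values under 1000 reads were whole within 0.02). The ChIP values are log2 RPM that the authors pooled over replicates. The counts of methylated and unmethylated calls per position on GRCm38 were deposited per library, and the deposited percent column was not used. The submitters' processing notes name Trim Galore 0.3.7 and 0.4, STAR 2.3.0, Bowtie2 2.2.5 and Bismark 0.12.5.

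A gene was tested if its log2 RPM averaged -2 or more, using limma 3.58.1 (mean-variance trend, R 4.3.3), with edgeR 4.0.16 and DESeq2 1.42.0 as alternatives. Promoters and gene bodies needed 10 or more calls per library and went into a quasi-binomial fit whose dispersion was moderated and kept at 1 or more. Both were also run on simulated data, with an outcome that is not given here. The threshold was a Benjamini-Hochberg adjusted p of 0.05. Promoters were 1 window per gene, that of the lowest numbered transcript name. Gene bodies were the rest of the annotated gene, also where it lies upstream of the TSS used. RPKM used GENCODE vM21 exon lengths. Binomial limits cover counting error only, and limma intervals the spread between libraries.

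The replicates are derivations repeated on different days. The labels do not say what a replicate number marks. Deviations of same-numbered RNA libraries correlated by 0.73, 0.201 and 0.83 over 13280 genes, and those of unlike numbers by -0.761 to 0.0221. The numbers were therefore taken to pair the RNA libraries. In BS and oxBS gene bodies the correlations were 0.016 to 0.0855. The 9 genes and all lists were chosen with earlier results of these data known. Genes named from a list are those past the threshold in either fit and the largest rise and fall, of which 1 is not reported here.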

Additional observations from a re-analysis of the deposited data

How the results depend on the processing

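The count of genes called with age was 0 in limma and stayed 0 with any single library left out, with quantile normalization, with either other filter on low values, with strain as a covariate in 8 libraries and in edgeR. It was 4 in DESeq2, 74 with the replicate block, 83 in edgeR with the replicate block and 265 with the replicate block in all 8 libraries, and in the last of these 3 of the 9 genes were called. The log2 difference with age changed sign in leave-one-out fits for Aqp4 (-0.43 to 0.05), Gja1 (-0.20 to 0.12) and Slc1a2 (-0.18 to 0.17), the last also in edgeR and DESeq2 (0.01 in both). It kept its sign for Gfap (-0.73 to -0.42), Aldoc (-0.66 to -0.23), Aldh1l1 (-0.36 to -0.14) and S100b (0.20 to 0.53). Glul (-0.41 to -0.04) and Slc1a3 (-0.42 to -0.06) kept theirs but came near 0, Glul without young adult replicate 3 or aged replicate 1, and Slc1a3 without either of the same libraries. All of these leave-one-out fits lacked the replicate block, so they did not allow for the pairing. Number 3 exceeded number 1 by 0.70 for Glul and 0.64 for Slc1a3. Within pairs 1, 2 and 3 and the C57BL/10 pair the difference was -0.17, -0.22, -0.28 and -0.34 for Glul. It was -0.20, -0.38, -0.02 and -0.32 for Slc1a3. The part of the replicate number in these changes was not tested.

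The strain comparison called 1478 to 4692 genes and 0 to 5 of the 9 genes when a library was left out, the lowest counts without a C57BL/10 library, and Aldh1l1 ran from -0.18 to 0.13. The age by strain test called 0 genes after quantile normalization and 41 with the replicate block. Windows called in H3K4me3 and H3K27me3 numbered 715 and 840 with Input subtracted, 6 and 43 at 2-fold, and 555 and 1629 at a log2 RPM above 0, where 1 of the 9 genes (Aldoc, H3K27me3) was called.

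In oxBS and BS the counts were 0 throughout, also with the replicate block, except for 1 gene body without young adult replicate 3 (range 0 to 1). Leave-one-out differences in percentage points crossed 0 at oxBS promoters for Gfap (-8.07 to 4.79), Aldh1l1 (-1.89 to 5.65), S100b (-2.94 to 10.7) and Slc1a2 (-1.11 to 8.55). They did so in oxBS gene bodies for Gfap (-2.82 to 8.22), Aldoc (-5.32 to 4.29), Aqp4 (-2.35 to 1.34), S100b (-2.26 to 1.5), Slc1a2 (-3.45 to 1.68), Slc1a3 (-0.282 to 1.56) and Gja1 (-2.67 to 2.85). The same held at BS promoters for Aldoc (-4.59 to 3.80), Aldh1l1 (-6.81 to 1.59), Aqp4 (-1.91 to 7.05) and Gja1 (-0.244 to 5.73). In BS gene bodies it held for Gfap (-2.40 to 5.10), Aldoc (-0.355 to 7.20), Aldh1l1 (-2.20 to 0.188), Aqp4 (-3.57 to 0.198), Slc1a2 (-3.19 to 0.413) and Gja1 (-1.72 to 2.42). Within 1000 bp of the TSS the oxBS difference fell to 6.79 for Gja1 and 2.97 for Glul, and the sign turned for Aldoc (13 in oxBS, 3.97 in BS), Aldh1l1 (-1.09) and Aqp4 (-6.41), and with equal weight of bins for Aldoc (0.82) and Aldh1l1 (-1.46). Gene bodies with separate 5hmC at the 2 ages numbered 2 to 4 with a replicate number left out. Fewer replicates separate more easily, and the share over all gene bodies was not taken at that setting. The count therefore cannot be set against that of the full comparison. The regions held 23 to 1766 calls per library, and the cause of the changes in sign was not tested.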
